A study of Mus musculus with 16 samples.

Results

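Genes of iron handling, 10 in number, were followed in the liver of obese mice given a long-acting glucagon receptor agonist with or without extra dietary protein. They were taken as the rows of the deposited expression table whose Ensembl identifiers carry the symbols Hamp, Hamp2, Trf, Tfrc, Tfr2, Hfe, Slc40a1, Fth1, Ftl1 and Alas1 in the GRCm38 annotation. All 10 were found among 55487 rows, and all 10 were above the filter on low values that 11839 rows passed. The list was drawn up by the genes' roles in iron handling, with earlier results of these data known. Whole-liver RNA-seq covered 16 male C57BL6/J mice, each giving 1 library, and every group held 4 of them. Every mouse was wild type and had been made obese on a high-fat diet (60 kcal% fat for 8 weeks, from 10 weeks of age by the sample labels, whereas the study's methods give other ages and times). The mice then stayed on high fat at a standard (SP) or a high (HP) protein content and were injected under the skin daily for 22 days with vehicle or with G108, the glucagon agonist, at 2.5 nmol/kg. This gave the groups vehicle SP and vehicle HP, which served as controls, and the treated groups G108 SP and G108 HP. Livers were taken after a 4 h fast, on day 25 by the sample labels and on day 22 by the study's methods. Liver is a mixture of cells, so fewer cells of a type and less RNA per cell cannot be told apart here.

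The liver sets the body's iron supply through hepcidin, a peptide hormone made by hepatocytes. Hepcidin binds ferroportin, the only known exporter of iron from cells, and causes its removal, so that less iron enters plasma from the gut, from macrophages and from hepatocytes themselves. Hepatocytes read iron through a membrane complex that drives bone morphogenetic protein (BMP) and SMAD signalling, and read inflammation through interleukin 6 and STAT3. Inside each cell, iron regulatory proteins bind hairpins in mRNAs, which blocks translation of ferritin and ferroportin and protects the transferrin receptor mRNA when iron is low.

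Values were deposited as TPM, a transcript abundance in which reads are divided by a gene's exon length and every library sums to the same total. The libraries held 27804258 to 45033380 assigned reads, as recovered from the TPM values. Because the median gene was 0.60 higher on the log2 scale in G108 SP than in vehicle SP in these TPM, each library was also divided by a median-of-ratios size factor (0.683 to 1.54), and the result is called scaled TPM. Fold changes are from limma on log2(scaled TPM + 1), with Benjamini-Hochberg adjustment over the 11839 genes. Mouse 4 of vehicle SP stood apart: its mean r with its own group was 0.935, against 0.960 to 0.966 for the other 3 mice. In that library the scaled TPM of 6 hepatocyte markers summed to 22737, against 31551 to 34016 in the other mice of its group, and that of 7 erythroid and blood markers to 3084, against 840 to 1224. Mouse 3 of G108 HP differed from its group in the same markers, with hepatocyte markers at 24583 against 27808 to 31395, erythroid and blood markers at 2380 against 983 to 1278, and the highest macrophage (98.5) and endothelial (34.2) marker sums of its group. Fold changes on SP are therefore also given without the first of these mice, and those of Hamp2, Tfrc, Slc40a1, Trf and Alas1 on HP without the second. None of the markers of hepatocytes, macrophages, endothelial, stellate or blood cells was at 0 in every library.

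The 10 genes spanned 3 orders of magnitude in TPM. The most abundant were Ftl1, the light chain of ferritin (mean 2468 TPM over 16 libraries, range 1185 to 3718), Trf, the plasma iron carrier transferrin (2023, 530 to 3681), and Hamp, the gene of hepcidin (1607, 698 to 2702). Their ranges overlapped widely. Hamp2, a second hepcidin gene of the mouse (270, 78.4 to 545), and Fth1, the ferritin heavy chain (254, 97.9 to 380), formed a second tier whose ranges also overlapped. Alas1, the first enzyme of heme synthesis in liver (91.2, 36.3 to 191), and Tfr2, the transferrin receptor used for iron sensing (87.2, 63.9 to 128), were next and did not differ beyond their spread. Hfe, a partner of the transferrin receptors (8.19, 3.91 to 13.8), lay beside Slc40a1, the gene of ferroportin (6.55, 3.39 to 12.7). Tfrc, the receptor for cellular iron uptake, was lowest at 2.44 TPM (1.13 to 5.21), which still rested on 218 to 709 recovered reads per library. Fth1 is understated by this measure, because the annotation joins 3469 exon bases in all for the gene.

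**Figure D1:**
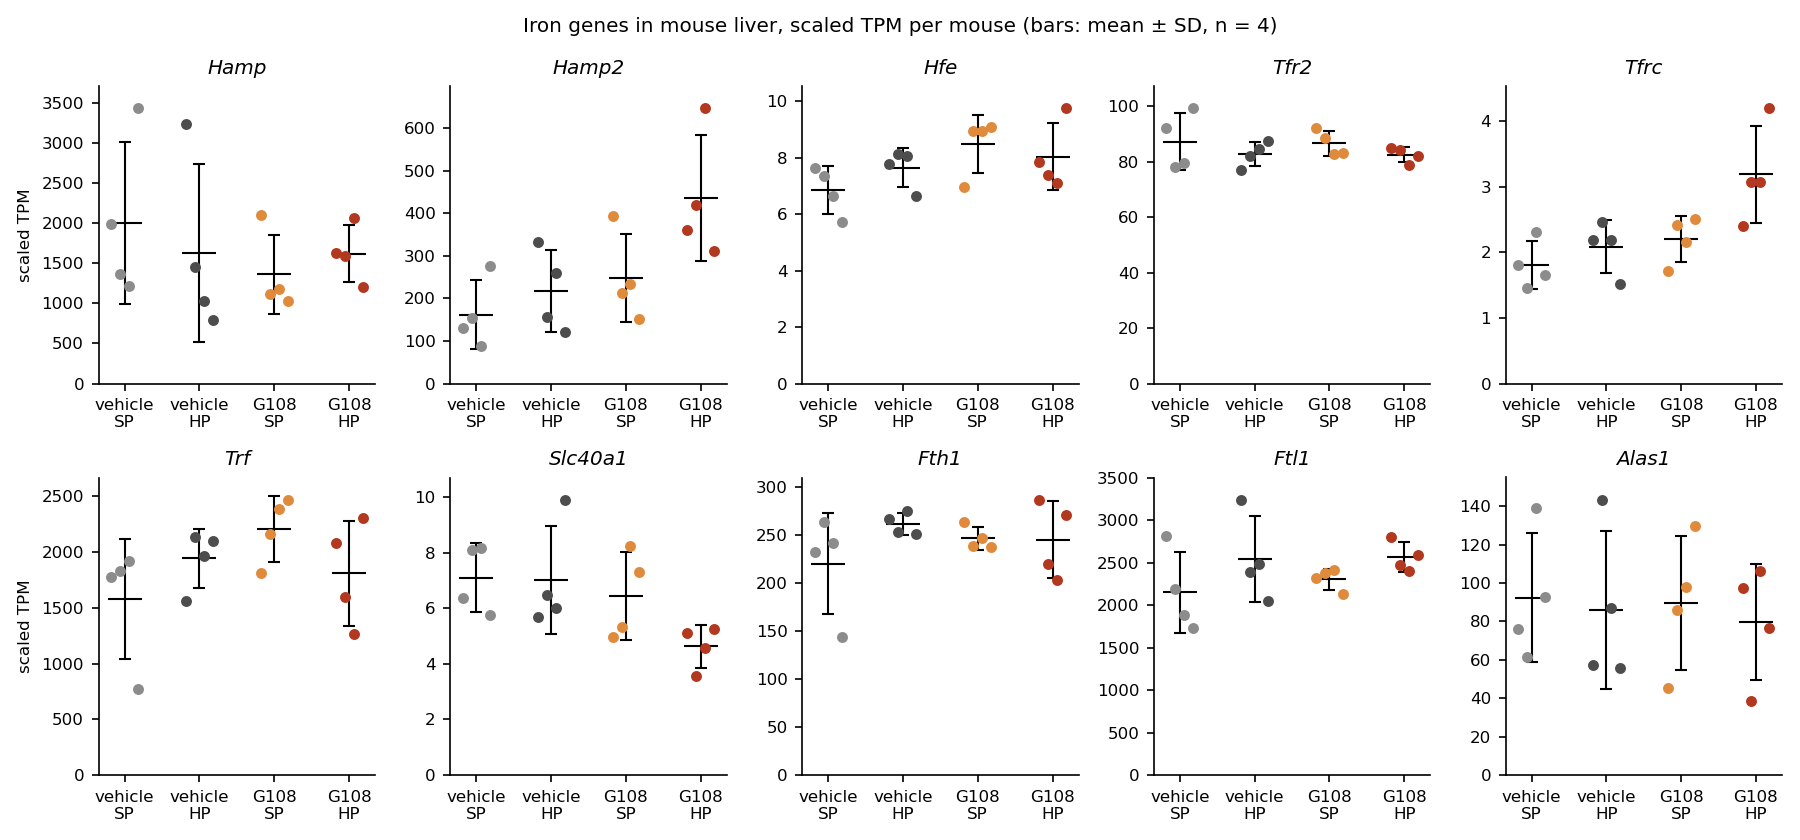
Scaled TPM (y axis, linear from 0) of each iron gene in every mouse (points) of the 4 groups (x axis), with the mean and SD of 4 mice as bars. Hamp2 and Tfrc were highest and Slc40a1 lowest on average in G108 HP, while Tfr2 stayed between 76.99 and 99.3 in all 16 mice.

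No iron gene passed the test in any comparison on scaled TPM. With G108 against vehicle on SP, 0 of 10 were called, where 2.72% of all genes were, and 1 of 10 (Hfe) had an unadjusted p under 0.05, where 17.7% of all genes did. On HP, 0 of 10 were called against 1.22% of all genes, and 3 of 10 (Tfrc, Slc40a1 and Hamp2) had an unadjusted p under 0.05, against 11.3%. The same 3 genes, in the same directions, had an unadjusted p under 0.05 for HP against SP with G108, where the share of all genes was 5.4% and no gene at all was called. These last 2 comparisons share the G108 HP mice. With vehicle, 0 of 10 had an unadjusted p under 0.05 for HP against SP (3.94% of all genes), and the interaction of drug and diet gave 0 of 10 (7.22% of all genes). voom, run on reads recovered from the TPM, also called 0 of 10 in each comparison. The median log2 fold change of the 10 genes was 0.16 with G108 on SP and 0.01 on HP, beside -0.01 and -0.00 for all genes tested. Without mouse 4 of vehicle SP, 1 of 10 iron genes had an unadjusted p under 0.05 on SP (13.7% of all genes). Without mouse 3 of G108 HP, 2 of 10 did on HP (8.12% of all genes) and 1 of 10 did for HP against SP with G108 (3.27%), and 0 were called in any of these. With G108 on SP, no iron gene had groups that did not overlap (9.21% of all genes did). On HP 1 of 10 did (8.15%). None did for HP against SP with G108 (4.27%) or with vehicle (2.01%). The counts of 3 of 10, and those at an unadjusted p without mouse 3 of G108 HP, lay above the shares of all genes. The other counts lay near or below them. With only 10 genes, 1 gene moves such a share much, and the differences from the shares were not tested.

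In TPM as deposited, the picture on SP was another one. There, 7 of 10 iron genes were called higher with G108 (Hfe, Tfrc, Fth1, Tfr2, Trf, Ftl1 and Hamp2), with log2 fold changes from 0.72 (Tfrc) to 1.42 (Hamp2). The background in that comparison was 77.6% of all genes, and the median gene moved by 0.60, against 0.83 for the iron genes. The share of iron genes called, 7 of 10, was thus no higher than that of all genes.

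**Figure D2:**
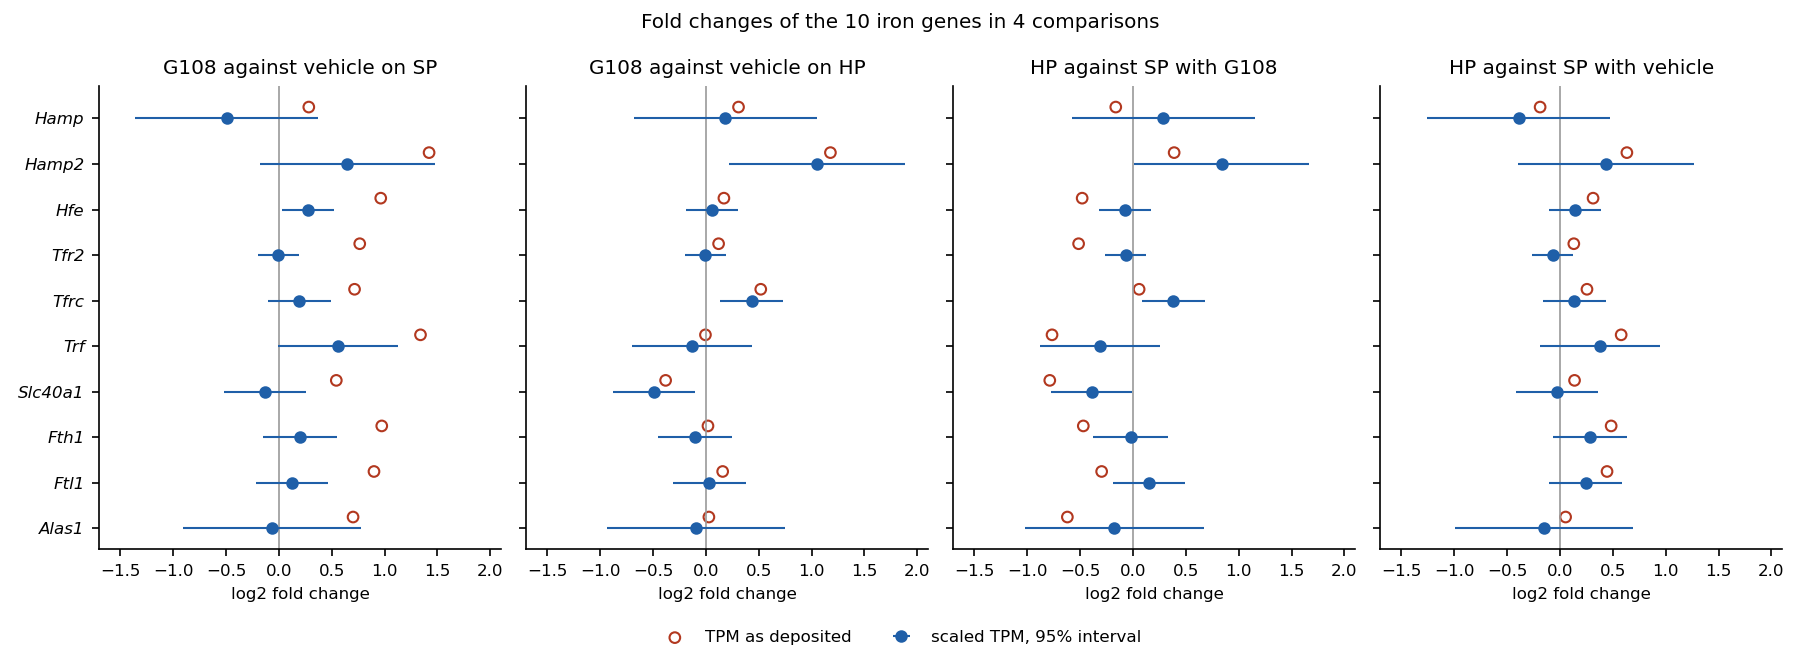
Log2 fold changes (x axis) of the 10 iron genes (rows) in 4 comparisons (panels); filled points and lines are scaled TPM with limma 95% intervals, open circles are TPM as deposited. On SP the open circles lie to the right of the filled points for all 10 genes, and the filled points of Hamp2, Tfrc and Slc40a1 have intervals off 0 in both middle panels.

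Hamp and Hamp2 lie side by side on chromosome 7 of GRCm38, on the minus strand (Hamp, ENSMUSG00000050440, chr7:30942368-30944032, and Hamp2, ENSMUSG00000056978, chr7:30922372-30924681). Their longest coding transcripts are 94.6% identical, and 33.7% of the 31-base words of Hamp also occur in Hamp2, so part of the reads could not be placed with certainty. Hamp encodes the hepcidin that acts on iron, and the product of Hamp2 is not known to do so. The bases before their RefSeq start sites are shown because this is where the pair differs in the letters of a known BMP response element (GGCGCC) next to a STAT site (TTCNNNGAA), both in capitals. The stretches are chr7:30944030-30944279 for Hamp and chr7:30924182-30924431 for Hamp2 (GRCm38.p6, minus strand, 250 bases each, from RefSeq).
Hamp: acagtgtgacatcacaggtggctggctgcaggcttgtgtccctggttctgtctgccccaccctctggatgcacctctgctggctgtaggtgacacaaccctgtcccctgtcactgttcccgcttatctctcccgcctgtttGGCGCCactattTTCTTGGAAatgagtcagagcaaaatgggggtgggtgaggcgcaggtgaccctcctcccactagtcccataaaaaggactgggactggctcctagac
Hamp2: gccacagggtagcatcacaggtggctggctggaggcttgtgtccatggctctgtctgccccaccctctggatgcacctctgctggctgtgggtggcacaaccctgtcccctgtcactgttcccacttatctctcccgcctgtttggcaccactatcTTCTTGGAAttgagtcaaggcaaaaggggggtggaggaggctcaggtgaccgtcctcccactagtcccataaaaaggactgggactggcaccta

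Over the 300-base RefSeq windows that also take in the first bases of each gene, the pair was identical at 276 of 297 aligned bases (92.9%). The Hamp window held GGCGCC at 109 bases before the start and TTCTTGGAA at 97 bases before it. The Hamp2 window held the STAT site, 94 bases before its start, and not GGCGCC. The substitution G145A, counted from 1 at the 5′ end of the Hamp stretch and written with the Hamp base first, falls within GGCGCC. Searched on both strands, GGCGCC occurred in 11.9% and TTCNNNGAA in 8.3% of 32851 promoter windows, and the motifs do not overlap each other here. Neither window held the E-box CACGTG (7.15% of windows) or the half-site TGACG of cAMP response elements (20.8%). These are matches of letters, not shown binding sites.

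Hamp varied more between mice than between groups. Scaled TPM were 1993, 1365, 1211 and 3433 in the vehicle SP mice and 3235, 1452, 1024 and 796 in the vehicle HP mice. They were 2100, 1121, 1184 and 1030 in the G108 SP mice and 1625, 1583, 2062 and 1201 in the G108 HP mice. In each vehicle group 1 mouse was at 3235 or above, all others were at or below 2100, and every pair of groups overlapped. The log2 fold change with G108 was -0.49 on SP (SE 0.41, limma adjusted p = 0.513) and 0.18 on HP (SE 0.41, adjusted p = 0.918). Single mice moved both values: without mouse 4 of vehicle SP the value on SP was -0.19, and leaving out 1 library took the value on HP from -0.09 (without mouse 4 of vehicle HP) to 0.59 (without mouse 1 of vehicle HP), which turns its direction. The 95% interval on SP, -1.36 to 0.37 on the log2 scale, still allows hepcidin mRNA to be more than 2-fold lower.

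Hamp2 had its highest mean in G108 HP. Scaled TPM were 131, 154, 87.8 and 276 in vehicle SP, 333, 156, 260 and 121 in vehicle HP, and 393, 212, 235 and 152 in G108 SP. In G108 HP they were 361, 421, 647 and 311, so that 3 of its 4 mice were above every vehicle mouse and mouse 4 was below 1 vehicle HP mouse. With G108 on HP the level was 2.07-fold (95% interval 1.17 to 3.69, limma adjusted p = 0.269). On SP the log2 fold change was 0.65 (SE 0.39, adjusted p = 0.389), and it ranged from 0.40 (without mouse 3 of vehicle SP or mouse 1 of G108 SP) to 0.94 (without mouse 4 of vehicle SP) when 1 library was left out. Mouse 3 of G108 HP had the highest Hamp2 of all, and without it the log2 fold change on HP was 0.84 (adjusted p = 0.651), against 1.05 with it. An antisense lincRNA, Gm44662, shares 89 of the 583 exon bases of Hamp2, and of all 11839 genes it was the one most like Hamp2 over the 16 libraries (r = 0.993). Whether the counting used strand is not given in the sources used here. Without strand, reads in the 89 shared bases cannot be assigned to 1 of these 2 genes. Gm44662 was at 155 to 353 scaled TPM in vehicle SP, 199 to 425 in vehicle HP, 241 to 549 in G108 SP and 451 to 890 in G108 HP, so that its groups overlapped on SP and not on HP, and its part in the level of Hamp2 was not tested.

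A ratio of 2 genes within a library does not depend on any scaling between libraries, although the shared bases just named bear on Hamp2 here too. The Hamp to Hamp2 ratio in TPM was 15.2, 8.87, 13.8 and 12.5 in the vehicle SP mice and 9.72, 9.29, 3.94 and 6.60 in the vehicle HP mice. It was 5.35, 5.27, 5.04 and 6.79 in G108 SP and 4.50, 3.76, 3.19 and 3.86 in G108 HP. Every G108 SP mouse was below every vehicle SP mouse, and every G108 HP mouse was below every G108 SP mouse, while G108 HP overlapped vehicle HP through its mouse 3. The mean log2 ratio was 3.62 ± 0.34 (SD, n = 4) in vehicle SP, 2.80 ± 0.60 in vehicle HP, 2.48 ± 0.19 in G108 SP and 1.93 ± 0.20 in G108 HP. The difference was -1.15 with G108 on SP (SE 0.19, two-sided exact permutation p = 0.0286) and -0.87 on HP (SE 0.32, exact p = 0.0571). It was -0.55 for HP against SP with G108 (SE 0.14, exact p = 0.0286) and -0.83 with vehicle (SE 0.35, exact p = 0.0857). The smallest p that 4 mice against 4 allow is 0.0286, and adjusted over the 12 ratio comparisons all 4 values were 0.171, so none passed. On SP the difference was -1.14 without mouse 4 of vehicle SP, and the exact p rose to 0.0571 without mouse 3 of G108 SP. For HP against SP with G108 it rose to 0.0571 without mouse 4 of G108 SP, and the difference was -0.47 (exact p = 0.0286) without mouse 3 of G108 HP.

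**Figure D3:**
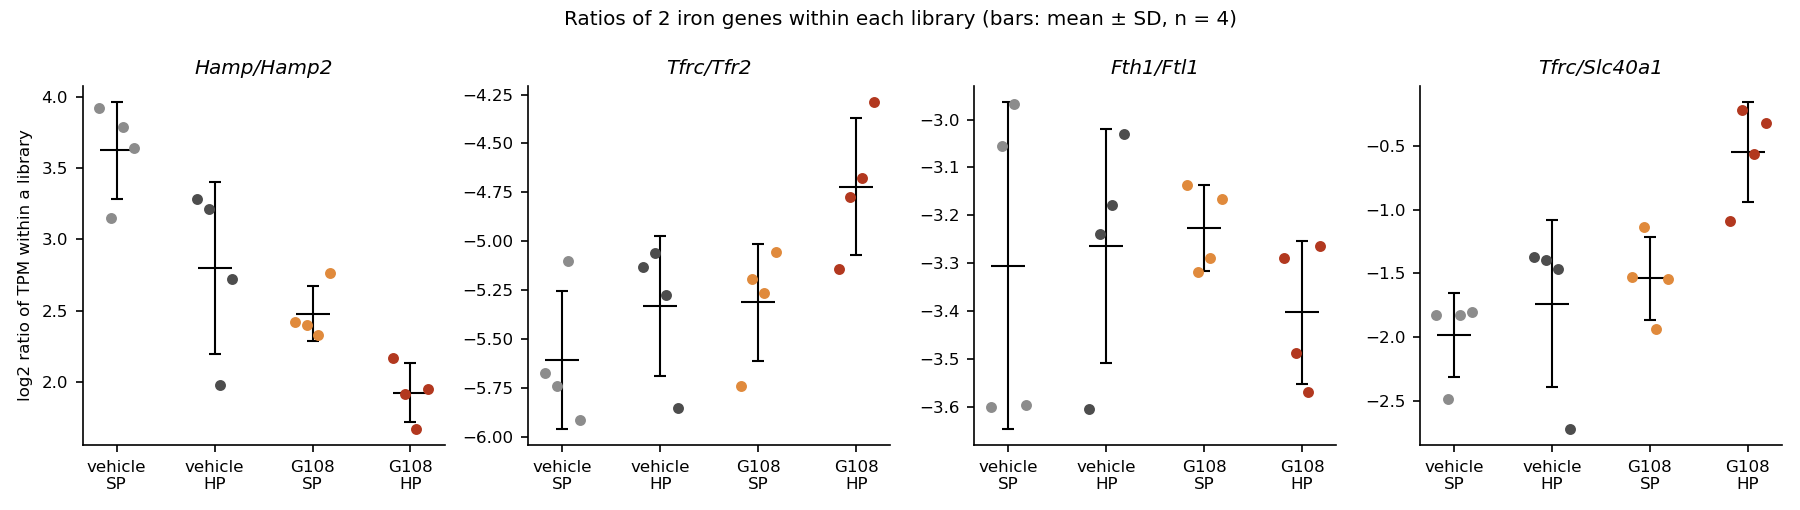
Log2 ratio of the TPM of 2 iron genes within each library (y axis) for every mouse (points) in the 4 groups (x axis), with mean and SD of 4 mice as bars. The Hamp to Hamp2 ratio has a mean of 3.62 in vehicle SP and 1.93 in G108 HP, Fth1 to Ftl1 stays between -3.61 and -2.97, and Tfrc to Slc40a1 is highest in G108 HP.

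Hamp moved together with Hamp2 from mouse to mouse within groups. Over deviations of the 16 libraries from their group means, Pearson's r was 0.82 (permutation p = 0.00164, adjusted over 5 relations 0.0082) and Spearman's rho 0.66 (permutation p = 0.0268, adjusted 0.134). Without the 2 libraries farthest from the median of Hamp, r was 0.72. In each of the 4 groups the mouse with the highest Hamp also had the highest Hamp2. Because 33.7% of the 31-base words of Hamp also occur in Hamp2, reads of 1 gene may be counted in the other. Their part in this relation was not tested. Id1, a direct target gene of BMP and SMAD signalling, was related to Hamp with r = 0.79 (permutation p = 0.0115, adjusted 0.0287) and rho = 0.54 (permutation p = 0.091, adjusted 0.228), and r was 0.52 without the 2 farthest libraries, so it rests in part on them. Saa1, an acute phase gene driven by STAT3, had r = -0.41 with Hamp (permutation p = 0.25, adjusted 0.417) and rho = -0.40 (permutation p = 0.221, adjusted 0.368), with r = -0.31 without the 2 farthest libraries. In each group the library with the highest Hamp also had the highest median of 117 short protein-coding genes (up to 600 exon bases, median deviation 0.103 to 0.145 on the log2 scale), and Hamp has 410 exon bases. The part of this in the spread of Hamp was not tested.

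**Figure D4:**
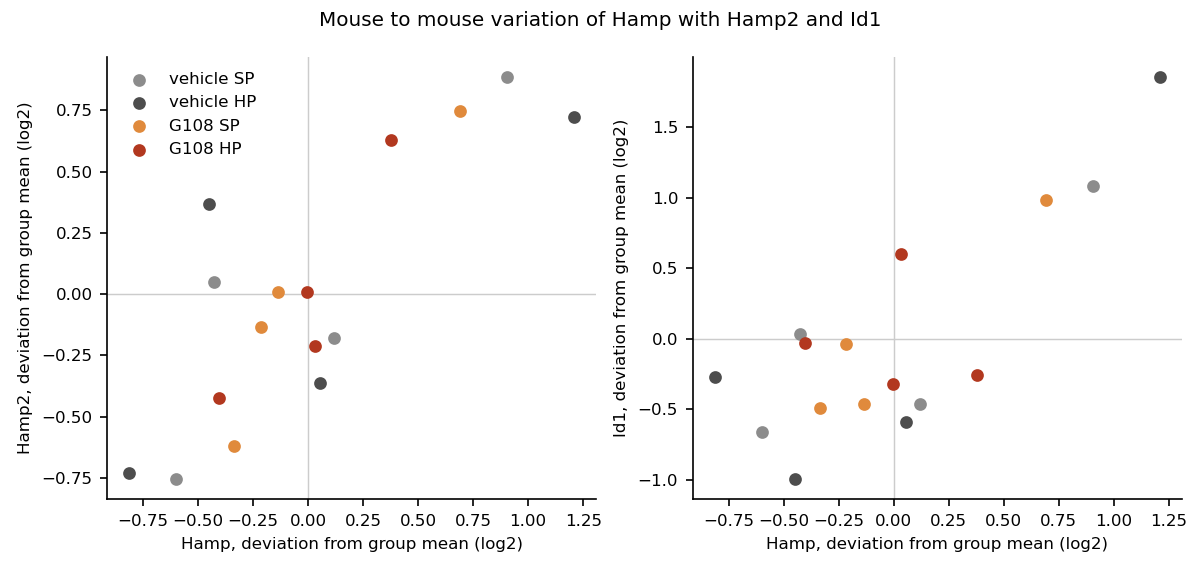
Deviation of Hamp from its group mean (x axis, log2 of scaled TPM + 1) against that of Hamp2 and of Id1 (y axes), 1 point per mouse, coloured by group. The points rise together (r = 0.82 and 0.79 over 16 mice), with mouse 1 of vehicle HP and mouse 4 of vehicle SP at the upper right.

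No change was called for the sensing genes Hfe and Tfr2, which act upstream of hepcidin at the hepatocyte membrane. Tfr2 (ENSMUSG00000029716, chr5:137569840-137587481) was at 92.0, 77.9, 79.6 and 99.3 scaled TPM in vehicle SP and at 92.0, 88.4, 82.7 and 83.3 in G108 SP. On HP it was at 77.0, 82.2, 84.5 and 87.3 with vehicle and at 84.9, 84.1, 78.8 and 82.1 with G108. Its groups overlapped throughout and it had the narrowest intervals of the 10 genes: the log2 fold change was -0.00 on SP (95% interval -0.20 to 0.19), or 0.06 without mouse 4 of vehicle SP, and -0.00 on HP (-0.20 to 0.19). Hfe (ENSMUSG00000006611, chr13:23702034-23710854), whose loss causes hereditary iron overload, was at 7.64, 7.35, 6.65 and 5.73 in vehicle SP and at 6.97, 8.96, 8.96 and 9.10 in G108 SP. All G108 SP mice but mouse 1 were above all vehicle SP mice. The log2 fold change was 0.28 (SE 0.12, limma adjusted p = 0.235), and 0.20 without mouse 4 of vehicle SP. On HP it was 0.06 (SE 0.12, adjusted p = 0.909).

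Upstream of Hamp, the gene of hemojuvelin was lower with G108 on SP. Hjv (ENSMUSG00000038403, chr3:96525172-96529210), the BMP co-receptor without which hepcidin is hardly made, was at 39.0, 44.2, 38.3 and 78.6 scaled TPM in vehicle SP and at 34.0, 28.6, 20.8 and 20.7 in G108 SP. The groups did not overlap, as was so for 9.21% of all genes. The log2 fold change was -0.88 (SE 0.21, limma adjusted p = 0.0363). On HP the mice were at 58.8, 40.9, 46.1 and 45.4 with vehicle and at 30.4, 29.4, 33.0 and 31.5 with G108, again without overlap (8.15% of all genes), with a log2 fold change of -0.59 (SE 0.21, adjusted p = 0.248). The call depends on the scaling: in deposited TPM the value on SP was -0.13 (adjusted p = 0.532). On scaled TPM it was lost on leaving out mouse 2 or 4 of vehicle SP or mouse 2, 3 or 4 of G108 SP (adjusted p 0.0604 to 0.14), with no filter on low values (0.089), with only the 2 groups fitted (0.2) and with a block for mouse number (0.0773), so that it held in 8 of 17 alternatives. Its size ranged on the log2 scale from -1.02 to -0.65 over the 8 libraries left out, the last without mouse 4 of vehicle SP.

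Hjv was the only gene called among 13 of 17 listed members of the BMP and SMAD arm that passed the filter on low values. On SP, 2.72% of all genes were called. With G108 on SP the median of these 13 was -0.18, beside -0.01 for all genes, and 5 of 13 had an unadjusted p under 0.05, all lower, where 17.7% of all genes had one in either direction. Besides Hjv they were, on the log2 scale, Id1 (-1.31, SE 0.55, limma adjusted p = 0.233), Atoh8 (-0.62, SE 0.26, 0.234), Acvr1 (-0.28, SE 0.07, 0.0684) and Bmp2 (-0.24, SE 0.09, 0.174), named here after their values were seen. Without mouse 4 of vehicle SP, 3 of 13 had an unadjusted p under 0.05 (13.7% of all genes), 0 were called, the median was -0.07, and the values were -0.95 for Id1, -0.41 for Atoh8, -0.26 for Acvr1 and -0.27 for Bmp2. Id1 and Atoh8 are targets of SMAD signalling, Acvr1 is a BMP receptor, and Bmp2 is a ligand made by sinusoidal endothelial cells. In deposited TPM 6 of the 13 were called higher and none lower (77.6% of all genes were called), so the direction of the list depends on the scaling. The scaled TPM of 7 endothelial markers summed to 21.7 to 24.6 in G108 SP and 26.8 to 35.3 in vehicle SP, and their part in these values was not tested. On HP 1 of 13 (Hjv) had an unadjusted p under 0.05, against 11.3% of all genes.

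Of the IL6, STAT3 and acute phase arm, 10 of 11 genes were tested and 0 were called in any comparison. With G108, 2.72% of all genes were called on SP and 1.22% on HP. An unadjusted p under 0.05 was found for 0 of 10 on SP (17.7% of all genes). On HP it was found for 3 of 10, all lower (11.3% of all genes). The lowest unadjusted p on HP belonged to Il6st, the signalling receptor of interleukin 6 (log2 fold change -0.31, SE 0.09, limma adjusted p = 0.141), and Jak2, its kinase (-0.25, SE 0.09, 0.213). Il6st was at 5.88, 6.84, 6.60 and 7.46 scaled TPM in vehicle HP and at 5.52, 4.67, 4.92 and 5.69 in G108 HP. These groups did not overlap, as was so for 8.15% of all genes. In deposited TPM on SP, 7 of the 10 were called higher, against 77.6% of all genes called.

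Iron-responsive elements, the hairpins bound by iron regulatory proteins, are shown for the iron genes that carry them. They were searched in GENCODE M21 transcripts as a C, a stem whose sides can pair, and the loop CAGTGN with N other than G, printed in capitals. The pattern stood in the 5′ UTR of Fth1, Ftl1 and Slc40a1 and at 4 places in the 3′ UTR of Tfrc. It stood in a 5′ UTR of 23 genes (0.105%) and in either UTR of 123 (0.562%) of 21877 coding genes. The sites are chr19:9982732-9982761 (plus strand), chr7:45459778-45459807 (minus), chr1:45925464-45925493 (minus) and, for Tfrc on the plus strand of chromosome 16, positions 32631219-32631248, 32631598-32631627, 32631663-32631692 and 32631710-32631739 (GRCm38).
Fth1: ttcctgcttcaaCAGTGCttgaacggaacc
Ftl1: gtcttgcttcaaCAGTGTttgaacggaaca
Slc40a1: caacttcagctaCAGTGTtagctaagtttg
Tfrc site 1: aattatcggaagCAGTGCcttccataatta
Tfrc site 2: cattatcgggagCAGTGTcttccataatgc
Tfrc site 3: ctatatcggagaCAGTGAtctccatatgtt
Tfrc site 4: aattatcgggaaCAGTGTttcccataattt

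Tfrc (ENSMUSG00000022797, chr16:32608920-32632794), whose mRNA is stabilised through these 3′ elements when iron is low, was highest in G108 HP. Scaled TPM were 1.80, 1.46, 2.31 and 1.65 in vehicle SP, 2.19, 2.46, 2.18 and 1.51 in vehicle HP, and 1.72, 2.41, 2.15 and 2.51 in G108 SP. In G108 HP they were 2.40, 3.07, 3.08 and 4.20, so that 3 mice were above all 12 others and mouse 1 was within the range of vehicle HP and G108 SP. With G108 on HP the log2 fold change was 0.43 (SE 0.14, limma adjusted p = 0.191). This is 1.35-fold in scaled TPM + 1, with a 95% interval of 1.10 to 1.66. The mean scaled TPM were 3.19 in G108 HP and 2.09 in vehicle HP. For HP against SP with G108 it was 0.38 (SE 0.14, adjusted p = 0.841), and in deposited TPM 0.06. Without mouse 3 of G108 HP the log2 fold changes on scaled TPM were 0.44 and 0.39. Over the 8 libraries left out singly they ranged from 0.32 to 0.53 and from 0.27 to 0.47. On SP the value was 0.19 (SE 0.14, adjusted p = 0.466), and 0.17 without mouse 4 of vehicle SP.

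Tfr2 has none of these hairpins and its scaled TPM moved little between groups, so the Tfrc to Tfr2 ratio largely restates the scaled values of Tfrc. It was 0.0283, 0.0365, 0.0391 and 0.0511 in the G108 HP mice and 0.0285, 0.0299, 0.0258 and 0.0173 in the vehicle HP mice. It was 0.0187, 0.0273, 0.0260 and 0.0301 in G108 SP and 0.0196, 0.0187, 0.0291 and 0.0166 in vehicle SP. All G108 HP mice but mouse 1 were above all others. The log2 difference was 0.61 with G108 on HP (SE 0.25, exact permutation p = 0.0857) and 0.59 for HP against SP with G108 (SE 0.23, exact p = 0.0571), both 0.171 after adjustment over the 12 ratio comparisons. Without mouse 1 of G108 HP these values were 0.75 and 0.73, each with an exact permutation p of 0.0286 before adjustment. Those were the upper ends of the ranges over the 8 libraries left out singly. The lower ends were 0.44 and 0.45, and the exact p reached 0.143 and 0.114.

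Slc40a1 (ENSMUSG00000025993, chr1:45908068-45926523), the iron exporter that hepcidin removes, was lowest in G108 HP. Scaled TPM were 5.13, 3.58, 4.56 and 5.26 in G108 HP and 5.69, 6.48, 6.01 and 9.92 in vehicle HP. They were 4.96, 5.31, 8.25 and 7.32 in G108 SP and 6.36, 8.12, 8.19 and 5.75 in vehicle SP. All 4 G108 HP mice were below all 8 vehicle mice, and Slc40a1 was the only iron gene whose G108 and vehicle groups did not overlap on HP, as was so for 8.15% of all genes. With G108 on HP, scaled TPM + 1 was 0.710-fold (95% interval 0.544 to 0.928, limma adjusted p = 0.263). The mean scaled TPM were 4.63 in G108 HP and 7.02 in vehicle HP. For HP against SP with G108 the log2 fold change was -0.39 (SE 0.18, adjusted p = 0.858). Without mouse 3 of G108 HP the log2 fold changes were -0.49 (limma adjusted p = 0.51) and -0.39. Over the 8 libraries left out singly, the value on HP ranged from -0.57 to -0.34 (limma adjusted p 0.183 to 0.709). For HP against SP with G108 it ranged from -0.49 to -0.28. With G108 on SP the log2 fold change was -0.13 (SE 0.18, limma adjusted p = 0.699). It was -0.22 without mouse 4 of vehicle SP, and 0.54 in deposited TPM. Ferroportin is expressed by macrophages as well as hepatocytes. The 9 macrophage markers summed to 43.9, 41.6, 98.5 and 51.1 scaled TPM in G108 HP and to 75.0, 75.2, 61.6 and 63.4 in vehicle HP. All G108 HP mice but mouse 3 were thus below all vehicle HP mice in these markers. The part of the markers in the result was not tested.

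Tfrc carries the hairpin in its 3′ UTR. Slc40a1 carries it in its 5′ UTR, where it acts on translation, which mRNA levels do not show. Iron itself was not measured here. The Tfrc to Slc40a1 ratio, chosen after the values were seen and given with no test, set G108 HP apart. It was 0.469, 0.859, 0.676 and 0.798 in G108 HP. It was 0.283, 0.179, 0.283 and 0.286 in vehicle SP, 0.386, 0.379, 0.363 and 0.152 in vehicle HP, and 0.347, 0.454, 0.261 and 0.343 in G108 SP. Every G108 HP mouse was above the other 12. No relation between the 2 genes was detected from mouse to mouse within groups (r = -0.07, permutation p = 0.805, and rho = 0.08, permutation p = 0.796, the same after adjustment over 5 relations, and r = 0.08 without the 2 farthest libraries).

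Ferritin stores iron in a shell of heavy and light chains. Fth1 (ENSMUSG00000024661, chr19:9980598-9985098) was at 232, 263, 241 and 143 scaled TPM in vehicle SP, 267, 253, 274 and 251 in vehicle HP, 263, 238, 247 and 238 in G108 SP and 287, 220, 203 and 270 in G108 HP. Only mouse 4 of vehicle SP was below 200. Ftl1 (ENSMUSG00000050708, chr7:45457944-45459884) was at 2816, 2187, 1888 and 1734 in vehicle SP, 3247, 2393, 2482 and 2051 in vehicle HP, 2316, 2375, 2411 and 2134 in G108 SP and 2805, 2469, 2410 and 2598 in G108 HP. All groups of both genes overlapped. The log2 fold changes with G108 were 0.20 (SE 0.16) for Fth1 and 0.12 (SE 0.16) for Ftl1 on SP, with limma adjusted p of 0.515 and 0.687, and -0.11 and 0.03 on HP, with 0.878 and 0.967. Without mouse 4 of vehicle SP both values on SP were near 0, at 0.01 and 0.03. The log2 ratio of Fth1 to Ftl1 ran from -3.61 to -2.97 over the 16 mice and differed between groups by -0.18 to 0.08 (exact permutation p from 0.143 to 0.914). Of the 31-base words of Ftl1, 57.7% also occur in other genes, most of them in pseudogenes such as Ftl1-ps1, so its level is less certain than that of Fth1 (3.24%). Exons of Gm22133, on the same strand, and Gm10252, on the other, also overlap those of Ftl1, by 464 bases in sum. How reads there were assigned is not given either.

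Trf (ENSMUSG00000032554, chr9:103204001-103230444) carries iron in plasma and is secreted by hepatocytes. It was at 1780, 1833, 1919 and 776 scaled TPM in vehicle SP and at 1816, 2158, 2388 and 2471 in G108 SP. On HP it was at 1563, 2140, 1969 and 2098 with vehicle and at 2078, 1593, 1261 and 2309 with G108. Mouse 4 of vehicle SP was far below all others, and 3 of 4 G108 SP mice were above all vehicle SP mice. The log2 fold change on SP was 0.56 (SE 0.27, limma adjusted p = 0.286) and 0.25 without that mouse, so this 1 library set most of its size. On HP it was -0.13 (SE 0.27, adjusted p = 0.91), and 0.03 without mouse 3 of G108 HP, the lowest of its group. Gm20425, annotated on the same strand, shares 2108 of the 3320 exon bases of Trf, and how reads there were assigned is not given in the sources used here.

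Alas1 (ENSMUSG00000032786, chr9:106233455-106248654), which sets the rate of heme synthesis in liver and is induced by fasting, spread widely in every group. Scaled TPM were 76.1, 61.3, 139 and 92.9 in vehicle SP, 57.2, 143, 87.2 and 55.6 in vehicle HP, 45.4, 86.0, 98.1 and 130 in G108 SP and 97.3, 38.3, 107 and 76.5 in G108 HP. Each group spanned at least a 2-fold range and all groups overlapped. Of the 6174 exon bases of Alas1, 465 overlap 4930500F10Rik on the other strand, and how reads there were assigned is not given. The log2 fold change with G108 was -0.07 on SP (SE 0.39, limma adjusted p = 0.933) and -0.09 on HP (SE 0.39, adjusted p = 0.958), with a 95% interval of 0.532- to 1.71-fold on SP. Without mouse 4 of vehicle SP the value on SP was -0.04, and without mouse 3 of G108 HP that on HP was -0.27. No relation of Alas1 to Ppargc1a, its known coactivator, was detected within groups (r = -0.12, permutation p = 0.66, adjusted 0.805, and rho = -0.16, permutation p = 0.589, adjusted 0.736, and r = -0.21 without the 2 farthest libraries).

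Of the iron and heme transport genes, 13 of 18 were tested. With G108, 3 of 13 on SP and 2 of 13 on HP had an unadjusted p under 0.05, against 17.7% and 11.3% of all genes. The list had 1 gene called, lower with G108 on SP, where 2.72% of all genes were called. This was Abcg2, an exporter of porphyrins and many drugs. It was at 5.16, 5.91, 6.15 and 6.73 scaled TPM in vehicle SP and at 4.55, 3.24, 3.08 and 4.12 in G108 SP. The groups did not overlap, as was so for 9.21% of all genes. Its log2 fold change was -0.56 (SE 0.12, limma adjusted p = 0.0173), and 0.07 in deposited TPM (adjusted p = 0.697), where 10 of the 13 were called higher, against 77.6% of all genes called. The call was lost on leaving out mouse 3 or 4 of vehicle SP or mouse 2 or 3 of G108 SP (adjusted p 0.0503 to 0.0752), in TPM rescaled without mitochondrial and Mup genes (0.0651) and with only the 2 groups fitted (0.103), so that it held in 9 of 16 alternatives. The log2 fold change ranged from -0.64 to -0.50 over the 8 libraries left out, and was -0.51 without mouse 4 of vehicle SP. Cp, the ferroxidase ceruloplasmin that works with ferroportin and is named here after its value was seen, had a log2 fold change of -0.67 on HP (SE 0.17, adjusted p = 0.0717).

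None of the other 3 lists had a gene called, where with G108 2.72% of all genes were on SP and 1.22% on HP. Of 8 tested genes for iron regulatory proteins and ferritin turnover, the lowest unadjusted p were for Ireb2, an iron regulatory protein (-0.38 with G108 on HP, SE 0.12, limma adjusted p = 0.193, and -0.23 without mouse 4 of vehicle HP), and Epas1, a hypoxia-inducible factor (-0.38 for HP against SP with G108, SE 0.16, adjusted p = 0.858). Of 13 genes of heme synthesis and breakdown, they were for the porphyrin transporter Abcb6 (0.27 with G108 on SP, SE 0.09, adjusted p = 0.155, and 0.22 without mouse 4 of vehicle SP) and for Fech, which inserts iron into heme (-0.27 on HP, SE 0.11, adjusted p = 0.355). Of 18 genes of iron-sulfur cluster assembly, they were for the chaperone Hspa9 (0.88 on SP, SE 0.30, adjusted p = 0.149, and 0.53 without mouse 4 of vehicle SP) and for the sulfur donor Nfs1 (interaction -0.44, SE 0.17, adjusted p = 0.575). In these 3 lists 0, 2 and 3 genes on SP and 1, 1 and 1 on HP had an unadjusted p under 0.05, against 17.7% and 11.3% of all genes, and in deposited TPM on SP 8 of 8, 12 of 13 and 18 of 18 were called higher, against 77.6% of all genes called.

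**Figure D5:**
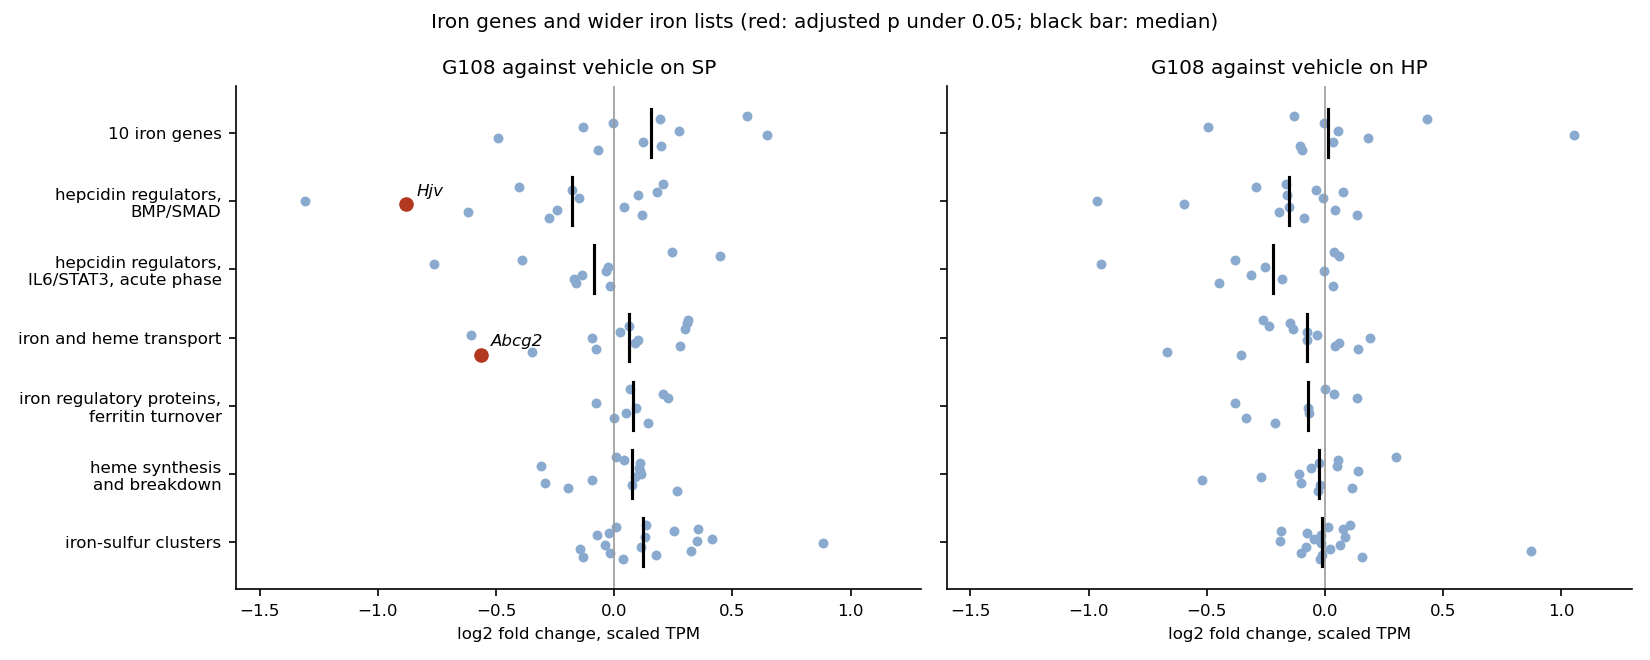
Log2 fold change on scaled TPM (x axis) of each gene (points) of the 10 iron genes and 6 wider lists (rows) with G108 on SP and on HP (panels); large red points were called and black bars are list medians. Hjv (-0.88) and Abcg2 (-0.56) on SP are the only red points, and the median of the BMP and SMAD list lies left of 0 in both panels.

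The genes most like each iron gene over the 16 libraries were read from Pearson's r of log2(scaled TPM + 1) among 11839 genes, where libraries share depth and composition. For Hamp they were Ttll3 (0.941) and Snrpd2 (0.938), and for Hamp2, after Gm44662, Tcp1 (0.895). For Tfrc they were the clock gene Cry1 (0.895) and Rcan1 (0.873), and for Tfr2 Creb3l3 (0.851) and Ccar2 (0.802). For Slc40a1 they were B4galt1 (0.911) and C1ra (0.902), for Hfe Fads2 (0.936) and Jup (0.933), and for Trf Atp5a1 (0.988) and Atxn10 (0.984). For Fth1 they were Tmco1 (0.947) and Akr1a1 (0.937), for Ftl1 its pseudogene Ftl1-ps1 (0.875) and Tspan31 (0.845), and for Alas1 Tspan4 (0.793) and Ankfy1 (0.780). Among the iron genes themselves, the highest r were between Trf and Fth1 (0.825) and Trf and Hfe (0.748), and the lowest between Hamp2 and Slc40a1 (-0.811).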

How the data were processed

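Liver RNA-seq of 16 mice was deposited by the authors as 1 table of TPM per Ensembl gene, made from featureCounts read counts and exon lengths after alignment to GRCm38 with HISAT2 2.0.5 (FastQC 0.11.8, per the labels). The counting options are not given in the sources used here. All 16 columns were used, assigned by their sample records. Symbols, coordinates and exon lengths came from GENCODE M21 (55227 of 55487 rows matched), and promoters from RefSeq, GRCm38.p6.

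TPM were divided by median-of-ratios size factors (11591 genes), and log2(scaled TPM + 1) of the 11839 genes whose mean TPM reached 1 was fitted in limma 3.58.1 (R 4.3.3), with 1 mean per group, all libraries, an intensity trend and Benjamini-Hochberg adjustment, with calls at an adjusted p under 0.05. Fold changes on this scale understate those of low genes. The study ran DESeq2 1.36.0 on counts, which were not used here. The fit was tested on simulated data. Depth was recovered from the steps of low TPM (98.8% of 138304 values within 0.02 of a whole read) and limits precision by counting error only. Ratios used two-sided exact permutation tests, and relations 100000 permutations within groups (Python 3.11.15, scipy 1.17.1).

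All 10 genes were named. From each of 6 wider lists, up to 4 genes called were named, or else the 2 with the lowest unadjusted p, and for each iron gene the 2 most like it. The genes and lists were chosen with earlier results of these data known. Alternatives were TPM as deposited, TPM rescaled without mitochondrial and Mup genes, a pseudocount of 0.1, no filter or one at a mean TPM of 5, fits of just the compared groups, a block for mouse number, array quality weights, voom on recovered reads, and each library left out. The Tfrc to Slc40a1 ratio, the counts at an unadjusted p, and the alternatives for genes of the wider lists were added after seeing the data. No label says that mouse numbers mark a litter or batch, so p-values measure the spread between mice. No duplicate library was found.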

Additional observations from a re-analysis of the deposited data

Results flagged for a closer look

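In 40 groups of 4 mice (10 iron genes in 4 groups), 3 had a mouse whose gap to its nearest neighbour was a larger part of the group's range than Dixon's 95% critical value for 4 samples, and chance alone gives this in about 1 in 20 groups. Hamp in G108 SP had mouse 1 highest (2100 scaled TPM against 1030 to 1184, gap over range 0.857). Trf in vehicle SP had mouse 4 lowest (776 against 1780 to 1919, 0.879). Hfe in G108 SP had mouse 1 lowest (6.97 against 8.96 to 9.10, 0.934).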

How the results depend on the processing

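The count of iron genes called stayed at 0 in all comparisons and alternatives but 2. With G108 on SP it was 7 in TPM as deposited and 1 (Hfe, adjusted p = 0.0402) with array quality weights. In TPM as deposited, Tfr2 on SP turned from -0.00 to 0.76 and Abcg2 from -0.56 to 0.0725, because that alternative keeps the shift of the median gene. Of 915 fold changes of single iron genes under alternatives, 78 had another sign, 77 of them with neither value called. Leaving out 1 library, the Hamp to Hamp2 difference ranged from -1.30 to -1.05 on SP (weaker without mouse 3 of G108 SP), from -1.15 to -0.71 on HP (past an unadjusted 0.05 without mouse 3 of vehicle HP) and from -0.64 to -0.46 for HP against SP with G108 (weaker without mouse 4 of G108 SP). The Tfrc to Tfr2 difference ranged from 0.44 to 0.75 on HP and from 0.45 to 0.73 for HP against SP with G108, where a pseudocount of 1 gave 0.57 (exact permutation p = 0.0286).

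Mouse numbers are shared by the groups but did not pair them: same-numbered mice had a median r of deviations of -0.03 (24 pairs, -0.57 to 0.53, 8 over 0.1). Mice with other numbers had a median of 0.02 (72 pairs, -0.55 to 0.60, 32 over 0.1). With the mouse number as a replicate block, 0 iron genes were called in each comparison, as without it, and the adjusted p of Hjv on SP was 0.0773, while calls over all genes went from 158 higher and 164 lower to 96 and 117 on SP and from 76 and 69 to 20 and 15 on HP. Depth was no limit for the abundant genes, whereas 4 mice per group leave the fold change of Hamp uncertain by more than 2-fold.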
